A study of Mus musculus with 6 samples.

Results

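ATAC-seq was used to map open chromatin in 3 mouse cell lines, and the peaks far from promoters were not spread evenly: some lay in tight runs. A dense cluster is here a run of 4 or more distal peaks in which neighbouring summits lie at most 12 kb and 500 bp apart, on chromosomes 1 to 19. A peak was distal when its summit, the position of most fragments, lay more than 1 kb from every start site of a protein-coding transcript (mm9). Of 51867 peaks in all, 29496 were distal and autosomal, and 2642 of these fell in 385 dense clusters. The clusters were chosen on peak positions, so their spacing is a description and not a finding.

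The lines were named for the level of Pax6, a transcription factor needed in eye and pancreatic islet. Pax6-HIGH is β-TC3, an insulinoma line of islet beta cells, Pax6-ON is MV+, a lens epithelial line of C57BL6 origin, and Pax6-OFF is RAG, a renal adenocarcinoma line of BALB/c origin. All were grown untreated, and each line gave 2 libraries, 6 in all, which were pooled in 1 peak call per line. No value therefore has a replicate error, and the 95% Wilson intervals given cover counting error only, over peaks that are neither independent nor replicates of a line. Nuclei of MV+ were released with 0.2% NP40 and those of the other lines with 0.1%, so detergent, strain and tissue cannot be told apart. A start-site peak was present at 23 of 44 islet genes in Pax6-HIGH, where 45.8% of all autosomal coding genes had one, at 4 of 37 lens genes in Pax6-ON (21.3% of all genes) and at 6 of 40 kidney genes in Pax6-OFF (36.1%). The lens and kidney markers thus had such peaks at shares below those of all genes in their own lines, and more of the lens genes, 13, had one in Pax6-HIGH. Of the islet genes 10 had one in Pax6-ON and 5 in Pax6-OFF.

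In ATAC-seq a transposase cuts DNA that is free of nucleosomes, so that active promoters and enhancers give many short fragments. Enhancers of genes that define a cell type often stand in closely spaced groups, known as stretch or super-enhancers, and several transcription factors bind within each. The genome also holds arrays and segmental duplications, in which a stretch of DNA recurs in nearly the same letters. Short reads from such copies can be assigned to 1 of them only where they cover a base that differs, and a copy that the reference lacks adds its reads to the copies that the reference has.

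A near copy was taken as another place in the mm9 reference with at least 90% identity over at least 90% of the 100 bp on each side of a summit. The first set of sequences shows what such copies look like, from an array that formed a large cluster in every line. It gives 101 bp around the strongest Pax6-HIGH summit (plus strand, mm9), followed by a pair of its copies elsewhere in the same cluster, with capitals at the bases that differ from the summit.
SNORD116 array, strongest Pax6-HIGH summit, chr7:67004577-67004677: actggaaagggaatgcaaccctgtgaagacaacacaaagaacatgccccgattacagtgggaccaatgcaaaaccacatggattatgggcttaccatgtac
SNORD116 array, copy 1, chr7:67007094-67007194: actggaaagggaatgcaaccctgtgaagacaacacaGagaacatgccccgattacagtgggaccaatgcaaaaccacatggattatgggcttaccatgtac
SNORD116 array, copy 2, chr7:67024822-67024922: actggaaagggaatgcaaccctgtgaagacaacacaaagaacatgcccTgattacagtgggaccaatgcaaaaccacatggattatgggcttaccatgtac
Of the 18 other peaks of this cluster 8 had such an ungapped copy, each with 1 difference, and the copies shown lie 2517 and 20245 bp from the summit.

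The second set compares summits of the kinds of cluster described further on, with capitals marking matches to 14 short motifs searched on both strands: AP-1 TGANTCA, CRE TGACGTCA, FOX TGTTTAC, NEUROD E-box CAGATGG, homeobox TAATTA, MAF TGCTGAC, RFX GTTGCCA, TEAD CATTCC, CTCF core AGGNGGC, NFI half-site TTGGCA, HNF1 half-site GTTAAT, RUNX TGTGGTT, SP/KLF GGGCGGG and AGATAAG for GATA factors. The first 3 lie in duplicated sequence, and the last 3, which have no near copy, in clusters of mainly single-copy sequence.
Pax6-HIGH, Speer4e side, chr5:14900149-14900249: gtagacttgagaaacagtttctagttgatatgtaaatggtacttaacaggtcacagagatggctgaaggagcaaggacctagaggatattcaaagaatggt
Pax6-ON, Gm15319, chr8:20020338-20020438: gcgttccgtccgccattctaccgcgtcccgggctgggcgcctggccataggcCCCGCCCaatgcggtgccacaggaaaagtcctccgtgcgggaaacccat
Pax6-OFF, Ighv segments, chr12:116795734-116795834: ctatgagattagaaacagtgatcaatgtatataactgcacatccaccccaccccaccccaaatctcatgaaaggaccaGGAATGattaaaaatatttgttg
Pax6-HIGH, Isl1, chr13:117087712-117087812: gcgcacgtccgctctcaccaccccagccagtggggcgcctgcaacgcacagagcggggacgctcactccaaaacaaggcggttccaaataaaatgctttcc
Pax6-HIGH, Mir9-2, chr13:83884651-83884751: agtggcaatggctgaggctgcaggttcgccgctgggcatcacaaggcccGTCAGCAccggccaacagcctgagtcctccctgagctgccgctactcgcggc
Pax6-OFF, Sp8, chr12:120053166-120053266: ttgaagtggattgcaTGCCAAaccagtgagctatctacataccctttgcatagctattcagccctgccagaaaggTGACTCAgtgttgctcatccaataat
The Pax6-ON summit holds an SP/KLF match, the Ighv summit a TEAD match, and the Mir9-2 summit a MAF match. At Sp8 the capitals are an NFI half-site and an AP-1 match, while none of the 14 motifs was found in the 101 bp shown at Speer4e or Isl1, which says only that these letters are not in that window.

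Pax6-HIGH had 228 dense clusters, Pax6-ON 56 and Pax6-OFF 101. In Pax6-HIGH 1244 of the 17885 distal peaks belonged to one, or 6.96% (6.59 to 7.34). The share was 10.1% (9.36 to 11.0) for Pax6-ON, 535 of 5274, and 13.6% (12.8 to 14.5) for Pax6-OFF, 863 of 6337. At these limits the line with most clusters thus had the lowest share of its distal peaks in them. With joins at 25 kb Pax6-ON had the lowest share, 13.4% against 17.7% in Pax6-HIGH. With 3 or more peaks it was again lowest, 12.7% against 13.4%. The order of the counts was not the same with fewer, stronger peaks: with the 9821 peaks of smallest q-value from each line, Pax6-HIGH was left with 9 clusters, below the 56 of Pax6-ON and the 42 of Pax6-OFF.

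The clusters of Pax6-HIGH mostly held few peaks and those of the other lines more. Of the Pax6-HIGH clusters 130 (57.0%) had exactly 4 peaks, against 19 (33.9%) in Pax6-ON and 33 (32.7%) in Pax6-OFF. Clusters of 10 or more peaks took up 17.7% of the clustered peaks of Pax6-HIGH (220), 62.4% of those of Pax6-ON (334) and 53.7% of those of Pax6-OFF (463). The largest had 48, 51 and 49 peaks. The median span was 23337, 28803 and 23196 bp, and the longest, in Pax6-OFF, 186058 bp. Just outside the threshold lay 387, 45 and 76 runs of exactly 3 peaks, in the same order of lines. In Pax6-HIGH the median fold enrichment was 3.23 in runs of 3 and 2.97 in clusters of 4. The same values were 3.03 and 2.82 in Pax6-ON and 3.03 and 2.72 in Pax6-OFF.

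Clustered peaks in Pax6-ON and Pax6-OFF lay almost wholly in sequence that occurs more than once in the genome. A near copy was present for 90.3% of clustered peaks in Pax6-ON (87.5 to 92.5) and for 90.4% in Pax6-OFF (88.2 to 92.2). Over all distal peaks of these lines the shares were 26.8% and 38.6%. In Pax6-HIGH 35.7% of clustered peaks had a near copy (33.1 to 38.4), against 15.5% of all distal peaks. Most peaks with a near copy had at least 1 close by: 30.1%, 84.7% and 85.9% of clustered peaks in Pax6-HIGH, Pax6-ON and Pax6-OFF had a copy within 1 Mb. The median identity of the best copy was 98.5%, 99.0% and 98.5%. Peaks at start sites had a near copy in 2.34%, 3.57% and 2.62%. Between the summits the sequence was duplicated too: the central 75 bp midway between neighbours had an exact copy in 21.9%, 48.6% and 48.4%, against 17%, 42.2% and 35.8% at the summits.

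A cluster in which at least 50% of the peaks had a near copy is called duplicated from here on, and the others mainly single-copy, a division chosen after these values were seen. Duplicated clusters were 58 of 228 in Pax6-HIGH (25.4%, 20.2 to 31.5), 53 of 56 in Pax6-ON (94.6%, 85.4 to 98.2) and 90 of 101 in Pax6-OFF (89.1%, 81.5 to 93.8). Of the 52 clusters with 10 or more peaks, 49 were duplicated. The other 3, 1 in each line, lie at the same place near the start of the sequenced part of chromosome 11, by Sfi1, which encodes a centrin-binding protein. The class refers to the reference only. At this place the median local background was 124 fragments in Pax6-ON and 181 in Pax6-OFF, against 14.2 and 10.8 over most of the genome. Whether the cells hold more copies of it than the reference was not tested. With exact copies of 75 bp in place of near copies the duplicated share fell to 9.21%, 55.4% and 29.7%.

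**Figure D1:**
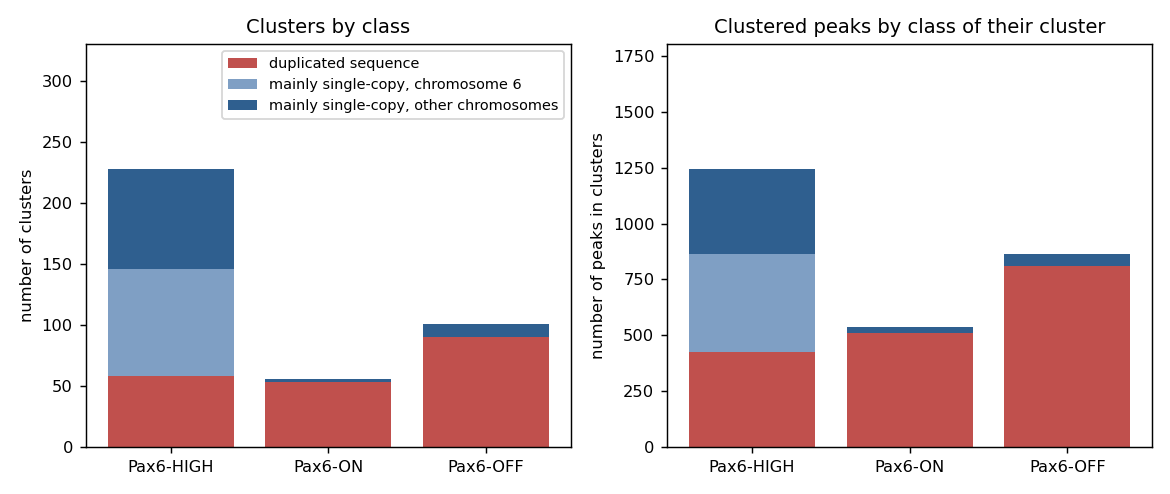
Number of dense clusters (left) and of peaks in them (right) in each line, stacked from 0 by class: clusters in which at least 50% of peaks had a near copy (duplicated sequence), mainly single-copy clusters on chromosome 6 and those on other chromosomes. Pax6-HIGH has 170 mainly single-copy clusters, Pax6-ON 3 and Pax6-OFF 11.

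**Figure D2:**
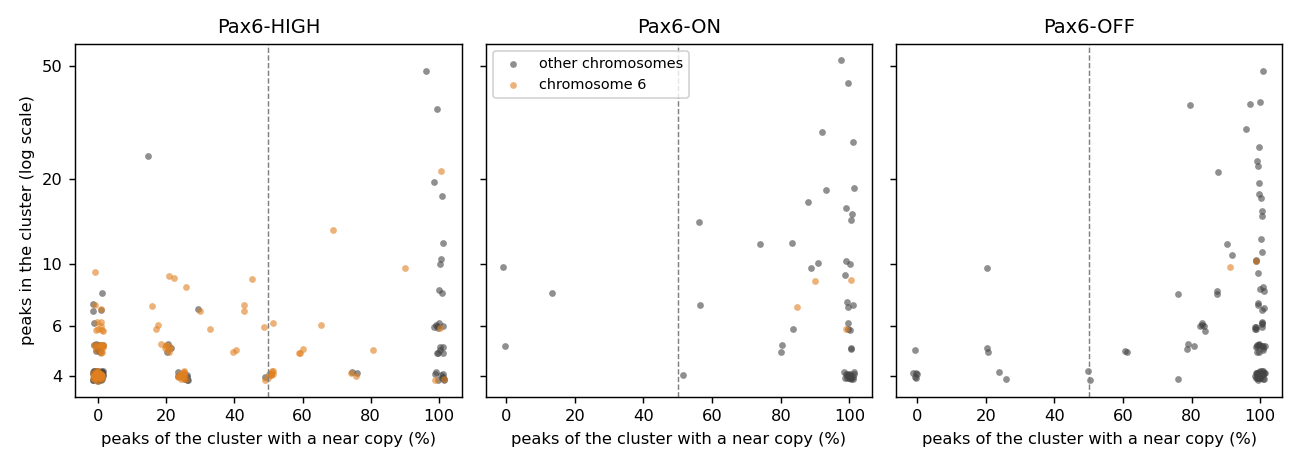
Each point is a cluster, with the percentage of its peaks that have a near copy on the x axis and its number of peaks on the y axis (log scale), slightly spread out so that points do not hide each other, in a panel for each line and with chromosome 6 in orange. All clusters of 10 or more peaks are at or above 50% (dashed line) except 1 in each line, and most small Pax6-HIGH clusters are at the lower left.

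Over all lines together the largest clusters were gene-family regions on chromosomes 5, 8, 12, 13 and 4. In Pax6-HIGH the next after those on chromosome 5 were others. They were at Sfi1 (25 peaks), on a chromosome 6 array (21) and on the SNORD116 array (19). The region around Speer4e (chr5:14896205-15062495), one of a family of testis-expressed genes, held clusters of 48, 42 and 49 peaks in Pax6-HIGH, Pax6-ON and Pax6-OFF. Its neighbour by Speer4c and Speer4d (chr5:15113374-15221794) held 34, 27 and 36. The region of the predicted gene Gm15319 (chr8:19853258-20037653) held 34, 51 and 41 peaks, and its 51 in Pax6-ON formed the largest cluster of any line. Fold enrichment in these regions was low: in the Speer4e cluster of Pax6-HIGH it ran from 1.56 to 4.18, with a median of 2.39 over a median local background of 48.4 fragments, where the value over most of the genome in that line was 11.8.

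Other large clusters had most of their peaks in 1 or 2 lines. Pax6-ON had a cluster of 29 peaks by Gm13145, Gm13152 and Gm13151 (chr4:146750466-146836841). In that span Pax6-HIGH had 10 distal peaks and Pax6-OFF 6, and a Pax6-HIGH cluster overlapped it. The Pax6-ON cluster lay within a stretch of chromosome 4 between 145.0 and 147.1 Mb. That stretch held 19 of the 56 clusters and 175 of the 535 clustered peaks of Pax6-ON. Pax6-OFF had 37 peaks among the immunoglobulin heavy-chain variable segments Ighv8-11, Ighv8-12 and Ighv1-67 (chr12:116787996-116932158) and 30 more by Ighv1-73. These segments are rearranged to code for antibodies in B cells. Pax6-ON had 23 distal peaks in the first of these spans and 12 in the second, and Pax6-HIGH 2 and 0. The longest Pax6-OFF cluster, with 37 peaks, ran across the vomeronasal receptor pseudogene Vmn2r-ps106 and the zinc finger gene Zfp640 (chr13:66717438-66903495). In its span Pax6-HIGH had 14 distal peaks, 4 of them clustered, and Pax6-ON had 12, 9 of them clustered. The other clusters among the 8 with most peaks of a line were smaller. They were a cluster of 12 peaks by 2410141K09Rik and Vmn2r-ps105 in Pax6-HIGH, and of 25 and 24 by Gm10139 and Gm6901 in Pax6-OFF. In Pax6-ON they were 18 by Gm13212, Gm13225 and Gm13242, 16 by 4930467E23Rik and Gm6483, and 16 on chromosome 12. The chromosome 12 cluster had no coding gene within 50 kb but held 5 immunoglobulin segments, and a Pax6-OFF cluster of 22 peaks overlapped it.

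Some of these regions are regular arrays. The SNORD116 snoRNAs, small nucleolar RNAs of the imprinted Prader-Willi region, stand as 19 genes on chromosome 7 with a median spacing of 2528 bp. Every line had a cluster on them: 19, 18 and 19 peaks, in the same order of lines, with no protein-coding start site within 50 kb. A peak lay within 1500 bp of 16, 15 and 16 of the 19 snoRNA genes. Fold enrichment was 1.71 to 3.99 (median 2.51) for Pax6-HIGH, 1.70 to 4.09 (median 2.87) for Pax6-ON and 1.70 to 4.04 (median 2.73) for Pax6-OFF, so the lines covered nearly the same range. The summits did not keep strict step with the array: 1 of 18, 1 of 17 and 2 of 18 gaps were within 200 bp of a whole number of 2.53 kb units.

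Pax6-HIGH alone had a cluster over an array on chromosome 6 (chr6:114444455-114522740), which lies beyond the 3' end of Hrh1, the histamine H1 receptor. It spanned 78286 bp and 32.3 units of 2.42 kb, and each of its 21 summits had 51 to 60 near copies. Fold enrichment was 2.15 to 5.12 with a median of 3.05, and 5 of 20 gaps were within 200 bp of whole units. Within its span Pax6-ON had 1 peak and Pax6-OFF none. A second array on that chromosome, by Pdia4, an endoplasmic reticulum folding enzyme, and the zinc finger genes Zfp786 and Zfp398 (chr6:47689634-47739016), was present in all lines with 13, 9 and 10 peaks. In Pax6-HIGH its first 4 summits stood at fold enrichments of 6.86, 6.53, 6.05 and 6.51, each with 16 near copies, and its median of 5.81 was far above the 2.52 of all peaks in duplicated clusters. Over the duplicated clusters, 11 of 58, 11 of 53 and 17 of 90 had copies of at least 50% of their peaks inside their own span, and a common spacing was found for 8, 8 and 14.

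**Figure D3:**
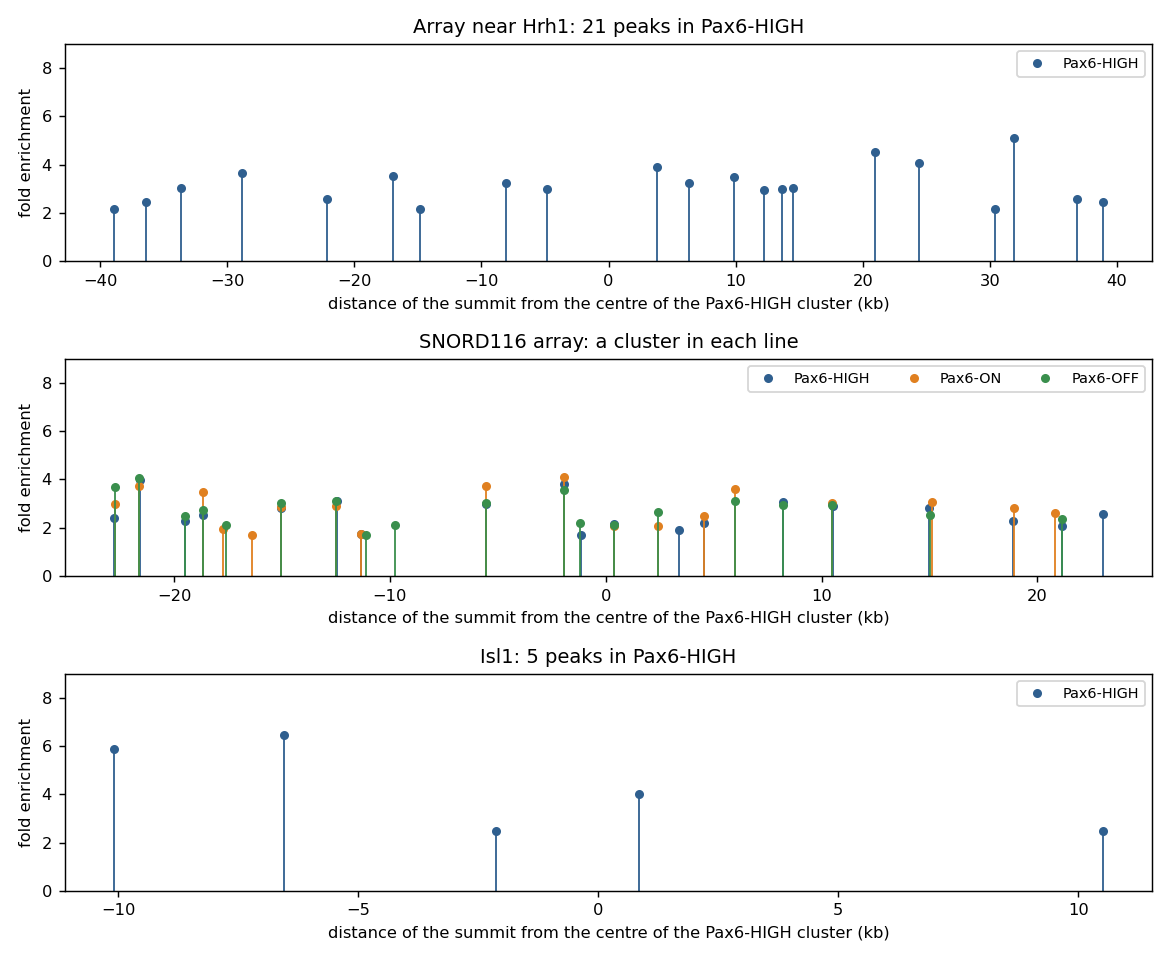
Fold enrichment (y axis) of every peak of the clusters near Hrh1, on the SNORD116 array and at Isl1, against the distance of its summit from the centre of the Pax6-HIGH cluster in kb (x axis), 1 line per peak and 1 colour per cell line. The SNORD116 array has 19, 18 and 19 peaks in the 3 lines, while the clusters near Hrh1 (21 peaks) and at Isl1 (5 peaks) are those of Pax6-HIGH.

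Clustered peaks were weaker than other distal peaks against their own surroundings. Fold enrichment is the pileup, the fragments over the summit, against the local background, each plus 1. Its median was 2.74 in clusters and 3.36 in the other distal peaks of Pax6-HIGH, 2.62 and 3.82 in Pax6-ON, and 2.53 and 3.46 in Pax6-OFF. The pileup itself was higher in clusters, with medians of 52 against 46, 69 against 58 and 66 against 43 fragments. What differed more was the local background, at 16.7 against 11.8, 24.0 against 14.2 and 25.2 against 10.9 fragments. That background is taken from the 6250 bp around a peak, which can hold neighbouring peaks of the same cluster, and how much these added was not tested. In Pax6-HIGH the median fold enrichment was 2.52 in duplicated and 2.89 in mainly single-copy clusters. Among the latter it was 2.58 on chromosome 6, where the other distal peaks also had 2.58. On the other chromosomes it was 3.5, against 3.6 in the other distal peaks. In this line the mainly single-copy clustered peaks were thus hardly weaker than other distal peaks of the same chromosomes. The Pax6-HIGH cluster at Sfi1 is the extreme, with a median local background of 188 fragments and a median fold enrichment of 1.61. Its pileup reached 1963 at chr11:3024086, a summit with 1 near copy. In Pax6-ON and Pax6-OFF that position lay in a duplicated cluster separate from the one at Sfi1.

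**Figure D4:**
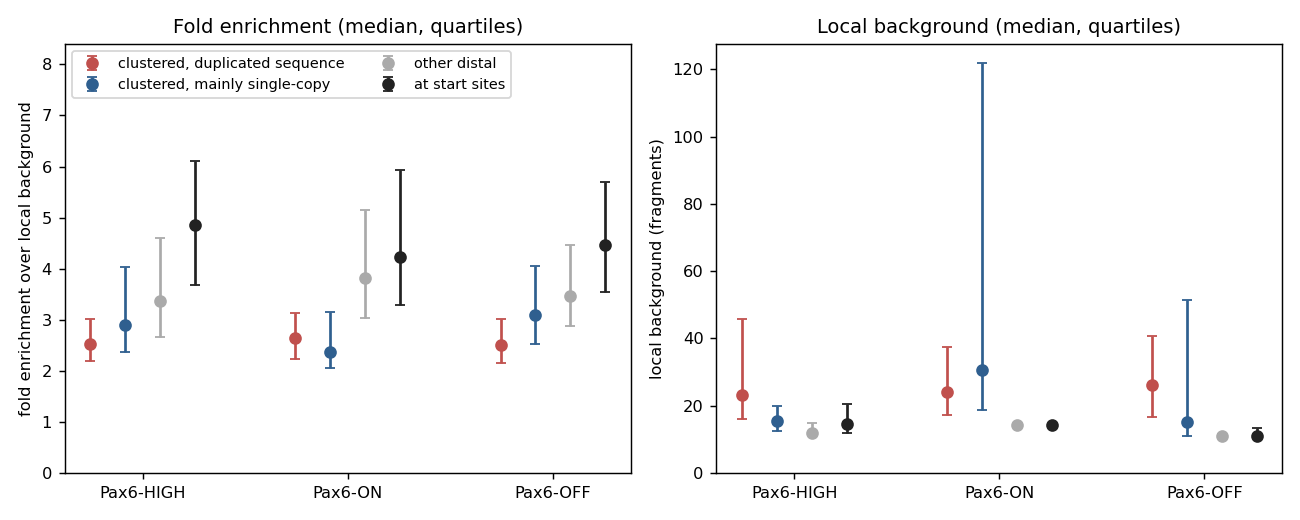
Median fold enrichment (left) and median local background in fragments (right) by class of peak in each line, with bars from the lower to the upper quartile. In each line fold enrichment in duplicated clusters is below that of other distal peaks and of peaks at start sites. The Pax6-ON mainly single-copy class holds only 23 peaks.

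Chromosome 6 held 113 of the 228 Pax6-HIGH clusters (49.6%, 43.1 to 56.0) and 581 of the 1244 clustered peaks (46.7%). It held 20% of all distal peaks of the line, and 16.2% of these were in clusters. In Pax6-ON 4 clusters lay on it (7.14%) and in Pax6-OFF 2 (1.98%). The chromosome also stood apart outside the clusters: the median local background of its distal peaks was 14.9 fragments against 11.8 on the other chromosomes, and their median pileup was 40 against 48. The part of this higher background in the count of clusters was not tested. Without chromosome 6 Pax6-HIGH had 115 clusters, with 4.63% of distal peaks. In Pax6-ON chromosome 4 led with 21 clusters (37.5%, 26 to 50.6), all duplicated, which held 34.6% of clustered peaks against 11.3% of all distal peaks. In Pax6-OFF chromosome 12 had 33 clusters (32.7%, 24.3 to 42.3) and chromosome 13 had 21 (20.8%, 14 to 29.7). They held 30.9% and 25% of clustered peaks and 12% and 10.7% of distal peaks.

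**Figure D5:**
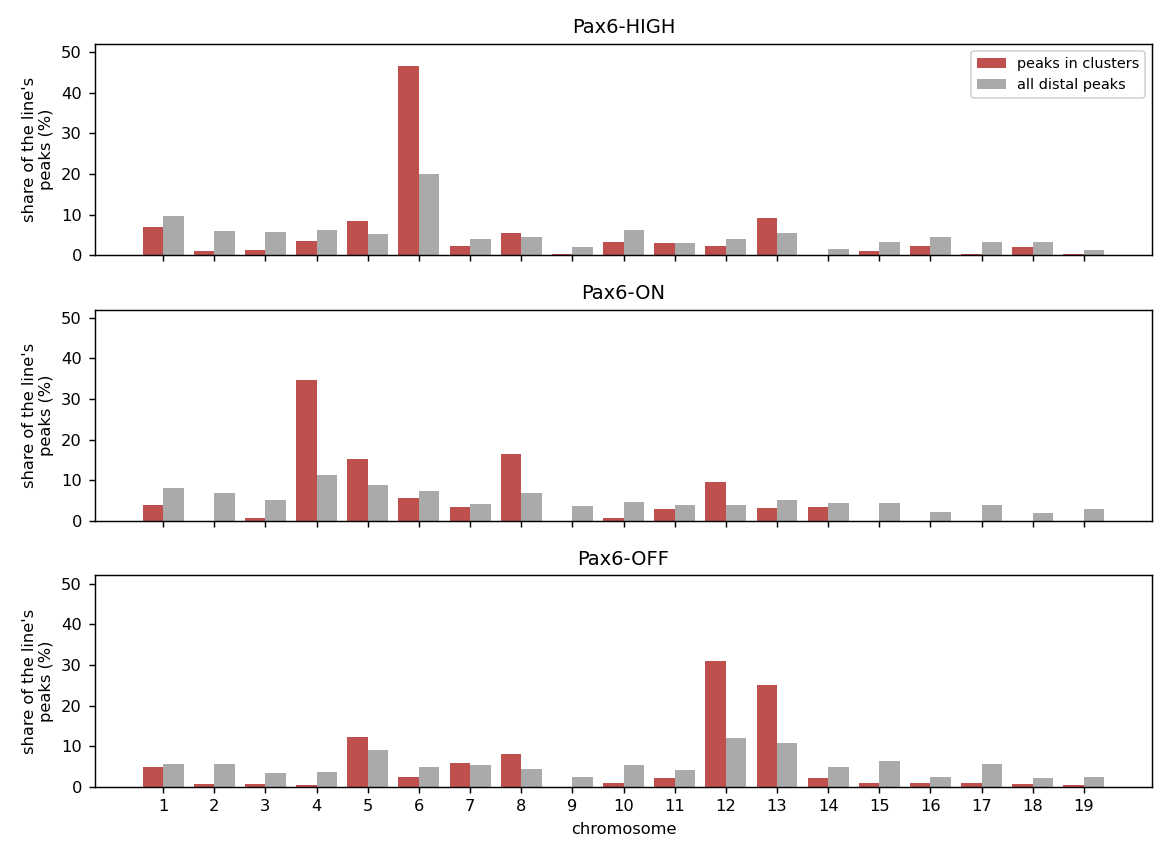
Percentage of clustered peaks and of all distal peaks of a line (y axis, from 0) on each autosome (x axis), in a panel for each line. Clustered peaks exceed the distal share most on chromosome 6 in Pax6-HIGH (46.7% against 20%), 4 in Pax6-ON (34.6% against 11.3%) and 12 and 13 in Pax6-OFF.

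The mainly single-copy clusters were nearly all in Pax6-HIGH, 170 of the 184. Of these 88 were on chromosome 6 and 82 on 16 other chromosomes. Those on chromosome 6 were weaker: the median over clusters of the median fold enrichment was 2.55, against 3.59 elsewhere. The gap was not particular to clusters, as the unclustered distal peaks of the line had medians of 2.58 on chromosome 6 and 3.6 elsewhere. A peak of at least 5-fold was in 26 (29.5%) of the clusters on chromosome 6 and in 47 (57.3%) of the others. On chromosome 6, 74 of the 88 (84.1%) held no peak of either other line, whether distal or at a start site, and on the other chromosomes 40 of the 82 (48.8%) held none. Such absence was common in this line: of all its distal peaks, 8.83% overlapped a Pax6-ON peak and 14.5% a Pax6-OFF peak. No peak had a near copy in 52 of the clusters on chromosome 6 and in 69 of the others. A protein-coding gene contained the whole cluster in 36 and 28 cases, and 46 and 31 had no coding start site within 50 kb.

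The 1 islet gene with a cluster was Isl1, a LIM-homeodomain factor needed for endocrine cells of the pancreas. Its 5 distal peaks in Pax6-HIGH (chr13:117083681-117104926) lay from upstream of the start site to beyond the 3' end of the gene. Their fold enrichments were 5.87, 6.47, 2.47, 4.03 and 2.48, over pileups of 142, 191, 61, 86 and 40 fragments. None had a near copy. Neither other line had a distal peak in the span, where Pax6-ON had 1 peak, at the start site, and Pax6-OFF none. The distal summits lay 4749 to 15673 bp from the nearest start site.

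Several other single-copy clusters in Pax6-HIGH were chosen from the 170 after their values were seen, so the kinds of gene near them do not describe the class. A cluster of 8 peaks on chromosome 13 (chr13:83854562-83885206) contained Mir9-2, which encodes the neural microRNA miR-9, and no coding gene within 50 kb. Its fold enrichments were 3.75, 4.22, 2.85, 2.46, 2.27, 3.43, 3.87 and 9.77, with the highest at the far end of the cluster, and Pax6-ON had 4 peaks in the same span. Around Hes1, a repressor induced by Notch signalling, 4 peaks stood at 4.53, 3.55, 2.33 and 4.22. The cluster by Chd2, a chromatin remodelling enzyme, had 6 peaks at 2.50, 2.50, 4.65, 7.50, 3.67 and 5.52. Inside Nrxn3, a presynaptic adhesion gene, 4 peaks had a median of 6.13, the highest of any single-copy Pax6-HIGH cluster.

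Few single-copy clusters were found in the other lines. In Pax6-ON 5 peaks inside Plxna2, a semaphorin receptor (chr1:196484659-196514622), stood at 5.66, 5.52, 3.03, 6.26 and 3.82. In Pax6-OFF 4 peaks by Sp8, a zinc finger factor of limb and brain development (chr12:120044502-120054897), stood at 5.19, 6.72, 2.23 and 2.89, and the weakest of them lay in a repeat with 265 near copies. Inside Igfbp7, a secreted protein that binds insulin-like growth factors, 5 Pax6-OFF peaks stood at 3.31, 3.20, 4.24, 3.31 and 3.52. Of these clusters Plxna2, Sp8 and Igfbp7 were chosen after their values were seen.

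Genes near clusters were few and often predicted ones. A coding start site within 50 kb of a cluster was found for 212 of 21281 autosomal genes (0.996%) by Pax6-HIGH clusters, 75 (0.352%) by those of Pax6-ON and 107 (0.503%) by those of Pax6-OFF. Genes with a Gm or Rik name, given to predicted or uncharacterised genes, were 52.6%, 61.2% and 54.2% of those near duplicated clusters and 15.1% of all autosomal coding genes. Near the single-copy clusters of Pax6-HIGH they were 11.9%. Speer genes, 9 on the autosomes, had 3, 4 and 3 members near a cluster, and vomeronasal receptor genes 6, 2 and 9 of 326. None of 1106 olfactory receptor genes, the largest family of duplicated genes in the mouse, was near a cluster in any line.

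Few genes of the labelled tissues lay near a cluster. Of 44 islet genes 1 was within 50 kb of a Pax6-HIGH cluster, of 37 lens genes none was near a Pax6-ON cluster, and of 40 kidney genes none was near a Pax6-OFF cluster. These counts are near the background shares above. At shares so low, lists of this size cannot show whether such genes gathered at clusters. In Pax6-HIGH, Aqp1, a water channel on the lens and kidney lists, lay by 5 peaks with fold enrichments of 2.55, 2.53, 3.15, 6.20 and 3.37, and the epithelial sodium channel gene Scnn1a lay by 4 peaks at 2.89, 4.38, 4.93 and 2.66. No cluster lay within 50 kb of Pax6 in any line. None of 13 AP-1 genes, 16 Hippo pathway genes, 36 matrix and adhesion genes and 14 epithelial genes was near a cluster, while 9, 3 and 10 of the AP-1 genes had a peak at their start site, beside the shares of all genes given above.

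Between 7.02% and 39.3% of the clusters of a line overlapped a cluster of another line. Of the Pax6-ON clusters 15 (26.8%, 17 to 39.6) overlapped a Pax6-HIGH cluster and 22 (39.3%, 27.6 to 52.4) a Pax6-OFF cluster. Of the Pax6-OFF clusters 31 (30.7%, 22.5 to 40.3) overlapped one of Pax6-HIGH and 22 (21.8%, 14.8 to 30.8) one of Pax6-ON. In Pax6-HIGH 32 clusters (14%, 10.1 to 19.1) overlapped one of Pax6-OFF and 16 (7.02%, 4.37 to 11.1) one of Pax6-ON. Split by class, 28 of its 58 duplicated clusters (48.3%) but 4 of its 170 mainly single-copy clusters (2.35%) overlapped a Pax6-OFF cluster, and 24.1% and 1.18% a Pax6-ON cluster. The other lines showed no such gap: 30.0% of duplicated and 36.4% of the 11 single-copy Pax6-OFF clusters overlapped one of Pax6-HIGH, as did 26.4% and 33.3% of those of Pax6-ON, where the single-copy clusters were 3. Toward each other, 39.6% and 33.3% of Pax6-ON and 22.2% and 18.2% of Pax6-OFF clusters overlapped. The overlapping single-copy cluster of Pax6-ON was in both cases that at Sfi1.

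Peak by peak, clustered peaks overlapped a peak of another line somewhat more often than distal peaks did in most pairs. From Pax6-HIGH, 18.2% (16.1 to 20.4) met one of Pax6-ON and 25.4% (23.1 to 27.9) one of Pax6-OFF, against 8.83% and 14.5% of all distal peaks. From Pax6-ON, 40.9% (36.8 to 45.2) overlapped Pax6-HIGH and 46.0% (41.8 to 50.2) Pax6-OFF, against 30.5% and 35.9%. From Pax6-OFF, 40.4% (37.2 to 43.8) overlapped Pax6-HIGH and 34.9% (31.8 to 38.1) Pax6-ON, against 41.6% and 29.8%. In Pax6-HIGH the shares were higher in duplicated clusters, where 43.5% and 56.9% of peaks overlapped Pax6-ON and Pax6-OFF, than in mainly single-copy clusters, where 5.01% and 9.04% did. Toward Pax6-HIGH the order was the other way: 39.4% of duplicated and 56.6% of the 53 single-copy Pax6-OFF peaks overlapped one, and 40.4% and 52.2% of the Pax6-ON peaks, of which 23 were single-copy. In each of these lines 10 of the single-copy peaks were those of the cluster at Sfi1.

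Joined over the lines, the clusters formed 325 loci. Of these 194 held clusters of Pax6-HIGH alone, 32 of Pax6-ON alone, 63 of Pax6-OFF alone and 13 of all lines. A locus with clusters of 1 line could still hold single peaks of another. Counting clusters with or without such overlap, 73.2% of Pax6-ON and 66.3% of Pax6-OFF clusters held a distal peak of Pax6-HIGH. Of the 228 Pax6-HIGH clusters 57 held one of Pax6-ON and 85 one of Pax6-OFF. Between Pax6-ON and Pax6-OFF the shares were 66.1% and 61.4%. The 13 common loci held 215, 226 and 258 peaks. Beside the Speer4, Gm15319, SNORD116, Sfi1 and Pdia4 regions they include an array on chromosome 8 (chr8:56199155-56208924) with 6, 7 and 8 peaks, which gave the densest clusters of Pax6-ON, at 7.22 peaks per 10 kb, and of Pax6-OFF, at 8.23. The densest of Pax6-HIGH, at 6.89, had 4 peaks on chromosome 18 and no coding gene within 50 kb. Within the common loci 63.3%, 62.8% and 55.0% of the peaks overlapped a peak of both other lines. These loci were chosen for overlapping clusters, so the shares are a description, and no like share was taken for other peaks.

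Motif content also set the clustered peaks apart in Pax6-ON and Pax6-OFF. The AP-1 motif TGANTCA, bound by FOS and JUN dimers, was within 100 bp of 5.98% of clustered summits in Pax6-ON (4.27 to 8.32), against 45.5% of the other distal peaks (44.1 to 47.0) and 41.5% of all distal peaks. Midway between clustered summits it was found in 5.22%. In Pax6-OFF it was found in 7.65% of clustered summits (6.06 to 9.61), 24.8% of other distal peaks, 22.4% of all distal peaks and 6.17% of midway windows. In Pax6-HIGH the shares were 10.7%, 13.2%, 13.1% and 4.13%. The motif GGGCGGG of SP/KLF factors was in 2.43% of clustered summits in Pax6-ON and in Pax6-OFF, against 6.64% and 10.9% of all distal peaks and 49.0% and 49.8% of peaks at start sites.

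In Pax6-HIGH 11 of the 14 motifs had a higher share in the mainly single-copy clusters than in the duplicated ones, and TEAD (90 of 819 summits against 53 of 425), the CTCF core (14% against 16.7%) and the HNF1 half-site (4.64% against 6.35%) a lower one. The MAF motif TGCTGAC, whose factors drive insulin genes in beta cells, was in 11.0% of summits in mainly single-copy clusters (9.03 to 13.3), 5.18% in duplicated clusters (3.44 to 7.71), 9.66% of all distal peaks and 2.76% of midway windows. AP-1 was in 12.3% of single-copy (10.3 to 14.8) and 7.53% of duplicated summits (5.38 to 10.4), whose intervals meet. The RFX motif GTTGCCA was in 2.81% and 0.471%, against 3.27% of all distal peaks. A motif match describes the letters and is not a bound site.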

How the data were processed

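ATAC-seq libraries, 2 for each of 3 lines, were processed by the authors: reads were trimmed with Trim Galore 0.4.1, aligned to mm9 with Bowtie2 2.2.6 and, after SAMtools 1.6, both libraries of a line were pooled in 1 MACS2 2.1.1 call (paired-end, q-value of 0.05, no control, local window of 6250 bp, duplicates kept). How reads mapping to several places were treated is not given in the sources used here. The deposited pileup is a signal in fragments that is not scaled for depth, so it was not compared between lines. The deposited fold enrichment is a ratio of pileup to local background, each plus 1, and the authors' q-values are −log10 values. Pooled depth was 100254099, 130955836 and 102223606 fragments for Pax6-HIGH, Pax6-ON and Pax6-OFF, and the lowest pileup called was 25, 30 and 25.

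Clusters were built with Python 3.11.15, pandas 2.3.3 and numpy 2.4.6 against GENCODE M1 on NCBIM37, the same assembly as mm9, and the builder was tested on simulated data. Near copies were searched with BLAST+ blastn 2.17.0 (word size 32, at most 200 alignments per sequence and chromosome) on the autosomes, X and Y. The 8 clusters of most peaks per line, the 6 largest common loci, the longest and densest clusters and those near listed genes of the line's tissue are named, and others are said to be chosen later. Members and gene lists were chosen with earlier results of these data known. Counts, shares and medians are given with no test. Alternatives changed the join distance, cluster size, distal limit, start sites, q-value, number of peaks, gene reach, motif window and overlap. A second list of the same peaks per line was not used, and 1 set of sequences is not reported here.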

Additional observations from a re-analysis of the deposited data

How the results depend on the processing

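No paired analysis was possible because both libraries of a line were pooled before peaks were called, and no library could be left out. The counts of clusters are set by the limits chosen. In Pax6-HIGH, Pax6-ON and Pax6-OFF the shares of distal peaks in clusters were 1.52%, 4.70% and 5.71% with joins at 5 kb, 17.7%, 13.4% and 17.8% at 25 kb, 13.4%, 12.7% and 17.2% with 3 or more peaks, 2.71%, 8.23% and 9.88% with 6 or more, and 6.57%, 8.46% and 12.3% with start sites of all transcripts. Counts of clusters that moved were 52 and 67 (Pax6-HIGH and Pax6-OFF, 5 kb), 547 (Pax6-HIGH, 25 kb), 615, 101 and 177 (3 or more peaks) and 50, 32 and 47 (6 or more). In Pax6-HIGH a distal limit of 2.5 kb gave 6.55% and q below 0.001 gave 5.37%. With equal peak numbers Pax6-HIGH had 9 clusters (1.27%) and Pax6-OFF 42 (8.23%), 8.93% of Pax6-ON and 16.7% of Pax6-OFF clusters overlapped one of Pax6-HIGH, 5 loci were common, no islet gene (0) was near a cluster, and AP-1 was in 1.89% (Pax6-HIGH) and 4.38% (Pax6-OFF). With 3 or more peaks 24 loci were common. The chromosome 6 share of Pax6-HIGH was 19.9% (5 kb), 41.6% (3 or more peaks), 49.6% (2.5 kb), 50.0% (all transcripts), 37.0% (q below 0.001) and 35.8% (equal numbers). AP-1 shares were 4.82%, 3.74% and 4.75% within 50 bp and 17.4%, 17.2% and 15.5% within 250 bp. Among alternatives chosen after seeing the data, peaks without a near copy gave 138, 4 and 10 clusters, leaving out chromosome 6 gave 115 (4.63%), copies within 1 Mb gave a duplicated share of 18% in Pax6-HIGH, and exact copies gave 9.21%, 55.4% and 29.7%. The other 67 planned values and 6 added ones moved by less than their counting interval or, for counts, by less than 1.5 times.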
